A study of Mus musculus with 6 samples.

Results

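The genes described here encode subunits of the oxidative phosphorylation system, the respiratory chain and ATP synthase of mitochondria. They were chosen by gene name, as all array probes whose name follows the nomenclature of complex I (Nduf with a subunit letter and number), complex II (Sdha to Sdhd), complex III (Uqcr), complex IV (Cox4 to Cox8 with a letter) or complex V (Atp5). This gave 85 of the 35527 gene names on the array, on 117 of its 55681 probes. By the complex to which each is now assigned, 35 belong to complex I, 4 to complex II, 8 to complex III, 20 to complex IV and 15 to complex V. The other 3, Cox4nb, Atp5s and Atp5sl, carry an older name of the same form without being subunits, and are described apart. Of the 85 genes, 82 had a probe that was tested, the condition being a group mean of 50 or more under either GapmeR. The 3 untested genes, Cox7b2, Cox8b and Cox8c, were at or near background and were well above it on none of the 6 arrays.

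The arrays came from 3T3 cells, a long-established fibroblast line from mouse embryos, grown in DMEM with 10% FBS. Cells received GapmeR Ntep, an antisense oligonucleotide directed at the long noncoding RNA Ntep, or GapmeR control, each at 50 nM for 48 h, a dose that the study's supplementary list of arrays gives as 2 × 50 nM. There were 3 arrays per GapmeR in 1 colour, 1 of each GapmeR from each of 3 independent experiments, and all 6 were on 1 slide. The comparison asks how the transcriptome of these fibroblasts differed after Ntep was targeted.

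Oxidative phosphorylation passes electrons from NADH through complex I, or from succinate through complex II, to ubiquinone, from there through complex III and cytochrome c to complex IV, and so to oxygen. Complexes I, III and IV pump protons across the inner mitochondrial membrane, and complex V uses the gradient to make ATP. Most subunits are encoded in the nucleus and imported, a few by mitochondrial DNA, and separate assembly factors join them without remaining in the finished complexes. Several subunits of complex IV exist as paired forms of which one is typical of muscle or another tissue.

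Between 43.8% and 53.3% of probes per array were well above background and none was saturated. Ntep itself, measured by 1 probe, had signals of 472, 91.5 and 226 in experiments 1 to 3 where the label was GapmeR Ntep, and of 271, 272 and 361 where it was GapmeR control (quantile-normalised intensity; log2 difference -0.48, SE 0.58, limma adjusted p = 0.632). Experiment 1 went against its label, so every direction below is that of the label. Where the probe lies relative to the stretch targeted by the GapmeR was not examined. Markers of fibroblasts, the labelled cell type, were all well above background on every GapmeR control array. On GapmeR Ntep arrays Dcn was well above it on 1 and Postn on 2, and the other markers on all 3. Of the 12, 11 were lower under GapmeR Ntep, 1 of them (Postn) by 2-fold with an unadjusted p under 0.01. The median log2 difference of the 12 markers was -0.57, -0.37 and -0.67 in experiments 1, 2 and 3. Their summed signal was 645099 to 831290.1 under GapmeR Ntep and 924306 to 1009836 under GapmeR control. Summed signals of the 11 macrophage markers were 42575 to 75356 and 20044 to 27536, 4 of the 6 tested were higher, 2 of these by 2-fold with p under 0.01, and the defining markers Adgre1 and Ptprc were not above background on any array. Sums of the 10 striated muscle markers ran from 3031 to 7628 under GapmeR Ntep and from 3087 to 25556 under GapmeR control. The part of these shifts in the values below was not tested, and in whole cultures fewer cells of a type and less RNA per cell cannot be told apart.

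The oxidative phosphorylation genes held nearly the same signal under both GapmeRs. Represented by its brightest probe, each gene was compared with limma across all tested probes, and none of the 82 had a Benjamini-Hochberg adjusted p under 0.05 in either direction. Over all 22094 tested genes, 1.98% were higher and 3.17% lower by that rule. Among tested genes with a mean signal of at least 10000, 3.04% were called in either direction. None of the 82 reached the study's own limits of a 2-fold change with an unadjusted p under 0.01 either, which 2.88% of all genes passed upward and 4.99% downward. At an unadjusted p under 0.05 there were 2, the complex I subunit Ndufa13, which was lower, and Cox4nb, which was higher, or 2.44% of the 82 against 24.9% of all tested genes. The methods' t-test, after adjustment, called none of the 82. The share of all tested genes that it called was not computed, and no conclusion is drawn from that 0. The number called by adjusted p was 2 with experiments as blocks, 1 with limma's trend and 5 with array weights. These genes are named below. The share of all tested genes called in these fits was not computed, so nothing particular to the members is read from these counts.

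Log2 differences, GapmeR Ntep minus GapmeR control, ran from -0.96 to 0.70 with a median of -0.08 and an SD over genes of 0.23. Over all tested genes the median was 0.06 and the SD 0.82. Of the 82 genes, 76 or 92.7% differed by less than 0.5 on the log2 scale, against 57.6% of all tested genes. Among tested genes with a mean signal of at least 10000 that share was 76.5%. The 95% confidence interval lay inside a 2-fold change in both directions for 74 of the 82 genes (90.2%). This held for 42.4% of all tested genes and for 72.15% of those with a mean signal of at least 10000. Transcripts of most of the 82 genes are abundant, and bright probes vary less. Among the 5820 tested genes with a mean signal of at least 10000, 73 of the 82 included, the SD was 0.51, and it was 0.16 for those 73.

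**Figure D1:**
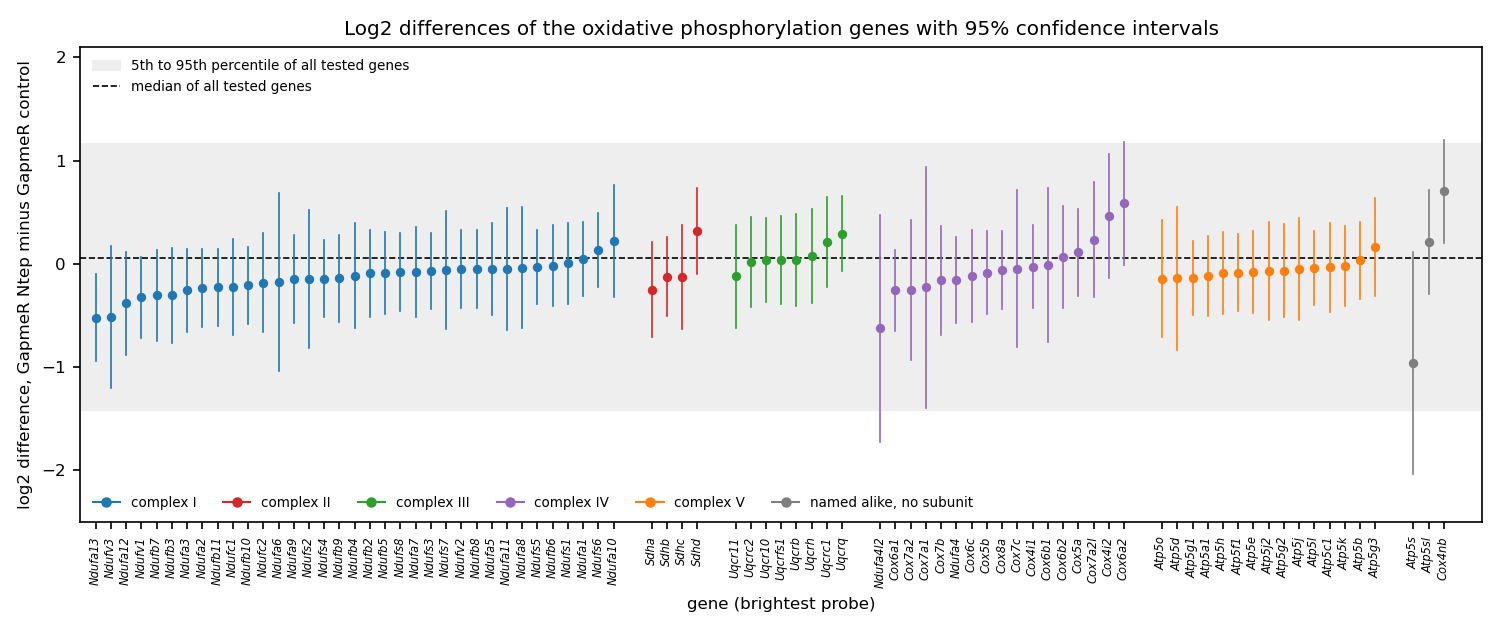
Log2 difference of each tested gene (GapmeR Ntep minus GapmeR control, brightest probe, n = 3 arrays each) with its 95% confidence interval from limma, ordered within each complex. The dashed line is the median of all tested genes at 0.06 and the grey band runs from their 5th to their 95th percentile, -1.42 to 1.16. All 82 points lie inside the band.

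**Figure D2:**
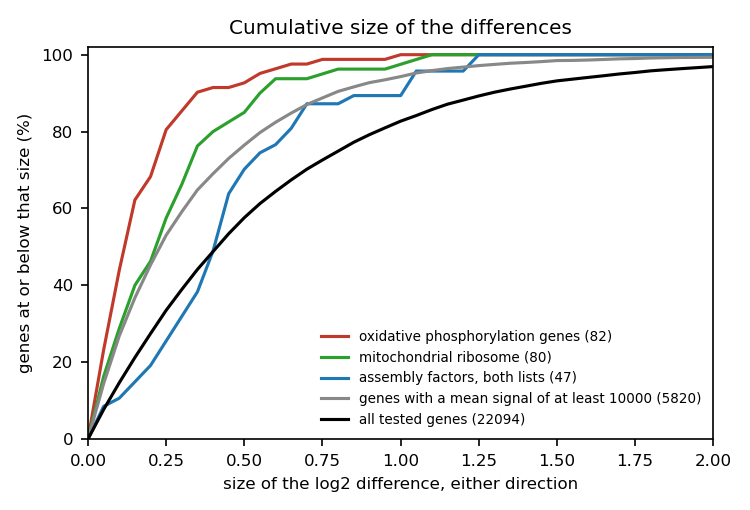
Share of genes (%) whose log2 difference, in either direction, is at most the size on the horizontal axis. At 0.25 the oxidative phosphorylation genes had reached 80.5%, the mitochondrial ribosomal proteins 57.5%, genes with a mean signal of at least 10000 53.0%, all tested genes 33.5% and the assembly factors 25.5%.

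The 3 signals of one group lay entirely below those of the other in 11 of the 82 genes (13.4%), where GapmeR Ntep was the lower, and entirely above in 5 (6.1%). Among all tested genes these shares were 15.4% and 17.1%. The share on the lower side was near that of all genes and the share on the higher side smaller. Signs were uneven all the same, with 61 differences below 0 and 21 above it, against 45.7% of all tested genes below 0. Scaling each array to its 75th percentile in place of quantile normalization moved the median of all tested genes to 0.22 and that of the 82 to 0.14, so their sign turned while they stayed below the other genes.

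Complex I oxidises NADH and is the largest of the complexes. Of its 35 genes, 31 had a difference below 0, with a median of -0.12 (0.08 under 75th percentile scaling, against 0.22 for all genes) and a range of -0.52 to 0.22. The groups did not overlap in 10 genes, 9 of them lower under GapmeR Ntep (25.7% of the complex). Among all tested genes 15.4% were lower without overlap, and 16.2% of those with a mean signal of at least 10000. The 10th, Ndufs6, an accessory subunit that was named after its values were seen, differed by 0.13 and was the higher.

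Ndufa13, an accessory subunit of the membrane arm also known as GRIM-19, had the lowest difference of the complex. Its signals were 110834, 145928 and 129699 under GapmeR Ntep in experiments 1, 2 and 3, and 182403, 184299 and 184448 under GapmeR control. The control arrays lay within a narrow range and all 3 GapmeR Ntep arrays were below it, with means of 128820.3 ± 17563 and 183717 ± 1140.2 (SD, n = 3 each). On the log2 scale the difference was -0.52 (95% confidence interval -0.94 to -0.10, limma adjusted p = 0.133). With limma's trend, which fits the variance to the brightness of the probe, the adjusted p was 0.0313, with array weights 0.0198, and over all alternatives it ran from 0.0198 to 0.345.

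Ndufv1 binds NADH and carries the flavin at which electrons enter. Its signals of 69104, 83038 and 79977 were all below the control values of 91957, 100463 and 97836 (log2 difference -0.33, SE 0.16, limma adjusted p = 0.272), and the difference was -0.09 under 75th percentile scaling. Ndufs1, the largest iron-sulphur subunit of the same NADH-oxidising module, gave 50830.2, 60723 and 55421 against 52929, 58541 and 54486. These values overlapped throughout, and the difference was 0.01 with a 95% confidence interval of -0.39 to 0.40. The highest difference of the complex was that of the accessory subunit Ndufa10, at 0.22 (limma adjusted p = 0.558). Its signals were 11095, 15411 and 15752 and 10084, 13650.1 and 12304, so each experiment was higher under GapmeR Ntep while the groups overlapped.

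Ndufa12 and Ndufv3 were named after their values were seen. Ndufa12, an accessory subunit related in sequence to the assembly factor Ndufaf2, gave 61985, 91643 and 79322 against 110493, 95594 and 94813, without overlap (log2 difference -0.38, limma adjusted p = 0.303). Ndufv3, an accessory subunit of the NADH-oxidising module, gave 50974, 91414 and 68349.5 against 76595, 109133 and 111096, where the groups overlapped (log2 difference -0.51, limma adjusted p = 0.314). It passed the adjusted threshold with array weights. A second, dimmer Ndufv3 probe went the other way, by 0.39. Ndufab1, the acyl carrier protein that is also a complex I subunit but whose name falls outside the rule, was lower without overlap at -0.35 (limma adjusted p = 0.255).

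Complex II, succinate dehydrogenase, also belongs to the citric acid cycle. The median of its 4 genes was -0.12, or 0.08 under 75th percentile scaling, and none passed either limit. Sdha, the flavoprotein, had signals of 53052, 72092 and 60157 under GapmeR Ntep and 78542, 74616 and 66014 under GapmeR control. Each GapmeR Ntep array was below the control of its own experiment, but the groups overlapped (log2 difference -0.25, SE 0.19, limma adjusted p = 0.454). Under 75th percentile scaling the difference was -0.022, and without GapmeR Ntep replicate 1 it was -0.14. For Sdhb, the iron-sulphur subunit, the values were 91912, 109496 and 101699 and 108253, 112921 and 108893, with a difference of -0.13 and overlap. Sdhd, a membrane anchor, stood on the other side. It gave 72201, 70189 and 84795 against 54535, 64371 and 63353, every GapmeR Ntep array above every control array (log2 difference 0.32, SE 0.17, limma adjusted p = 0.309). The other anchor, Sdhc, differed by -0.12.

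Complex III hands electrons from ubiquinol to cytochrome c. Here 7 of 8 genes had a difference above 0, with a median of 0.04, close to that of all tested genes. Uqcrfs1, the Rieske iron-sulphur protein, gave 75019, 82289 and 85959 against 68526, 85265 and 84050.5 (log2 difference 0.04). For Uqcrc1, a core subunit, the signals were 17427, 22289.6 and 20114 and 18814, 15569 and 17278, with overlap and a difference of 0.21 (limma adjusted p = 0.497). Uqcrq, a small subunit, was the highest and the one gene of the complex without overlap. Its signals were 130706, 118803 and 128083 under GapmeR Ntep and 105819.7, 101155 and 100960.2 under GapmeR control (log2 difference 0.29, SE 0.15, limma adjusted p = 0.285). Uqcr11 was the lowest at -0.12. The median of the complex was -0.06 without GapmeR control replicate 1, so its sign rested on that array.

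Complex IV reduces oxygen, and its paralogous subunits let the tissue forms be read side by side. The 17 tested genes had a median of -0.06, or 0.14 under 75th percentile scaling, and 12 were below 0. Among the forms found in most tissues, Cox4i1 gave 142856, 166524 and 177258 under GapmeR Ntep and 171782, 161525 and 161729.9 under GapmeR control, a difference of -0.03. Cox8a differed by -0.06, Cox6b1 by -0.01, Cox7a2 by -0.25 and Ndufa4, a subunit first assigned to complex I, by -0.16, with limma adjusted p of 0.594 to 0.984 and overlapping groups. Cox6a1 alone among them had groups apart, at 301816, 323940.5 and 300100.4 against 397446, 380261 and 330236 (log2 difference -0.26, SE 0.16, limma adjusted p = 0.376). Under 75th percentile scaling its difference was 0.05.

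Among the tissue-restricted forms, Cox6a2, the heart and skeletal muscle form, gave 662, 875 and 1125 under GapmeR Ntep and 585, 510 and 646 under GapmeR control, higher without overlap (log2 difference 0.59, SE 0.24, limma adjusted p = 0.206). With array weights its adjusted p was 0.0202, and over all alternatives 0.0202 to 0.466. Cox7a1, another muscle form, gave 1216, 2916 and 1904 against 1226, 2875 and 3077, so the low values were the pair of experiment 1 rather than those of 1 GapmeR (log2 difference -0.23, limma adjusted p = 0.792). The muscle marker Tnni2 was also lowest in experiment 1 in either group, with 599, 5746 and 2463 and 1217, 19694 and 22808. Its bearing on Cox7a1 was not tested.

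Cox4i2, a form of lung and of low oxygen, gave 144, 136 and 109 against 124, 74.9 and 87.6 (log2 difference 0.46, limma adjusted p = 0.301). Cox6b2, the testis form, differed by 0.07. Ndufa4l2, a paralog of Ndufa4 known to be induced in hypoxia, was well above background on 1 GapmeR Ntep and 2 GapmeR control arrays, at 55.3, 77.4 and 58.9 and 50, 112 and 164 (log2 difference -0.62, SE 0.45, limma adjusted p = 0.436). Without GapmeR control replicate 1 its difference was -1.11, past the limits of a 2-fold change and an unadjusted p under 0.01, and with array weights its adjusted p was 0.0393, within a range of 0.0393 to 0.784 over all alternatives. Cox8b, the muscle and brown fat partner of Cox8a, was at 23.9, 20 and 20 and 20, 31.5 and 41, where values of 20 are the floor.

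Complex V had the smallest SD over genes of the 5 complexes, 0.08 on the log2 scale. Its 15 genes ran from -0.15 to 0.16, with a median of -0.07 (0.16 under 75th percentile scaling), and all 15 confidence intervals lay inside a 2-fold change. Atp5a1 and Atp5b encode the alpha and beta subunits of the catalytic head. Atp5a1 gave 65206, 65368 and 69709.6 against 64975, 75983 and 76820, and Atp5b gave 173046, 157409 and 173754 against 158773, 167144 and 166775. Both overlapped, with differences of -0.12 and 0.03. The mature c subunit of the membrane rotor is encoded by Atp5g1, Atp5g2 and Atp5g3, which differ in their targeting peptides. Atp5g1 gave 122944, 113405 and 116428 against 129479.8, 127034 and 130571, lower without overlap but 0.11 on the log2 scale under 75th percentile scaling (quantile-normalised log2 difference -0.13, SE 0.15, limma adjusted p = 0.597). Atp5g2 overlapped at -0.06. Atp5g3, at 235596, 161729.9 and 211584 against 184299, 175403 and 178151, had the highest difference of the complex, 0.16, and was lower under GapmeR Ntep in experiment 2. It was 0.04 without GapmeR Ntep replicate 1 and 0.32 without replicate 2. The lowest was Atp5o, the stalk subunit that confers oligomycin sensitivity, at -0.15 (limma adjusted p = 0.722).

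The genes that only share the naming pattern held the highest and the lowest difference of the 82. Cox4nb, now named Emc8 and part of a membrane protein insertase of the endoplasmic reticulum, gave 10077, 7558 and 10109 against 6169, 4829.6 and 6007, higher without overlap (log2 difference 0.70, SE 0.20, limma adjusted p = 0.102). Atp5s gave 311, 601 and 844 against 708, 1183 and 1374, lower in each experiment (log2 difference -0.96, SE 0.44, limma adjusted p = 0.243). Blocking by experiment brought the adjusted p to 0.0468 for Cox4nb and 0.0419 for Atp5s, so both passed there. Cox4nb also passed with array weights, and under the remaining alternatives, among them the omission of each array, neither gene passed. Atp5sl differed by 0.22. Leaving these 3 genes out, the 79 subunits ran from -0.62 to 0.59.

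**Figure D3:**
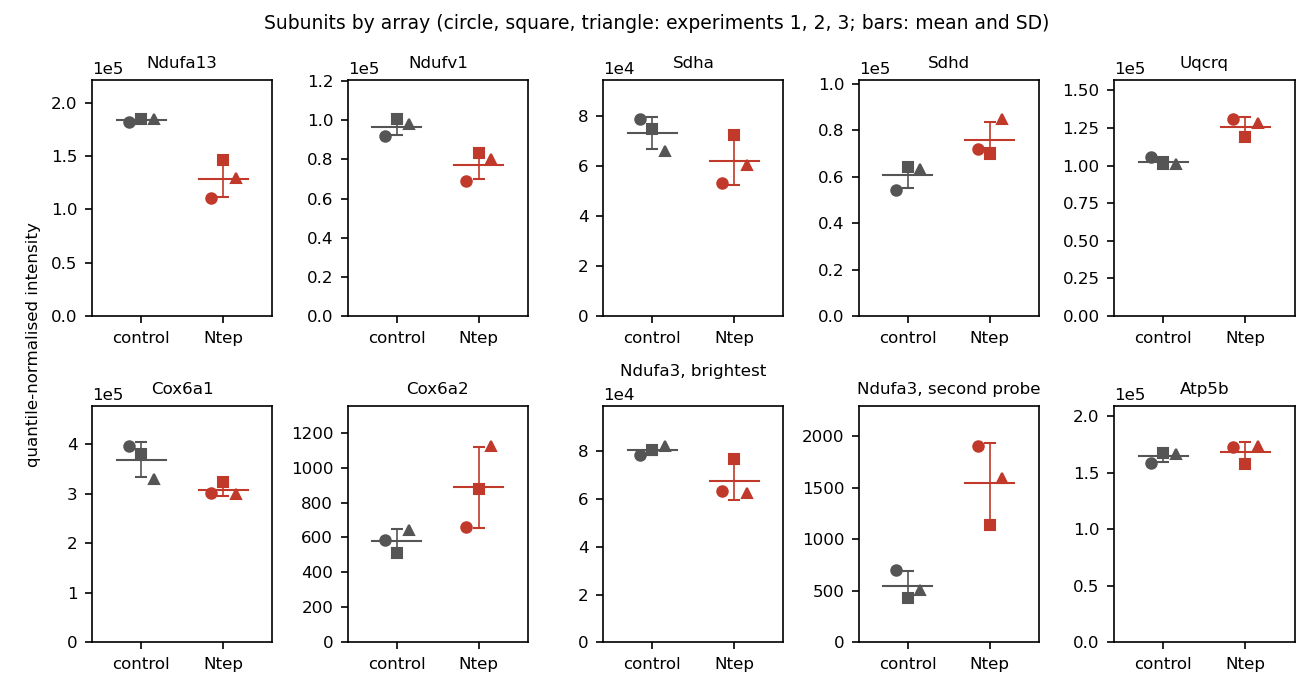
Quantile-normalised intensity (linear axis from 0) of selected subunits on each array, GapmeR control in grey and GapmeR Ntep in red. Symbols give the experiment, and bars the mean and SD of 3 arrays. The genes shown were selected. The groups do not overlap for Ndufa13, Ndufv1, Sdhd, Uqcrq, Cox6a1, Cox6a2 and either Ndufa3 probe, whereas they overlap for Sdha and Atp5b. Among the 82 tested genes 6.1% were higher and 13.4% lower without overlap, against 17.1% and 15.4% of all tested genes.

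A single probe among the 114 tested for these genes passed the adjusted threshold. Over all tested probes, 2.09% were higher and 3.21% lower by that rule. It was the dimmer of the 2 probes for Ndufa3, an accessory subunit of complex I. This probe gave 1910.2, 1141 and 1595 under GapmeR Ntep and 707, 434 and 513 under GapmeR control (log2 difference 1.49, SE 0.28, limma adjusted p = 0.043). The brightest Ndufa3 probe went the other way, at 63185, 76498 and 62574 against 78299, 80304 and 82246 (log2 difference -0.26, limma adjusted p = 0.381). The called probe lies on chromosome 7, bases 3569447 to 3569506 of mm9 and was designed on a cDNA clone rather than on the RefSeq transcript. The brightest probe lies on chromosome 7, bases 3571695 to 3571754. Whether the 2 probes read the same transcript was not tested. The call of the dimmer probe held in 9 of 12 alternatives and was lost without a filter on dim probes, with the mean of a gene's probes and with the methods' t-test. It was also lost in 5 of the 6 fits that left out 1 array and held without GapmeR Ntep replicate 2, with adjusted p from 0.0469 to 0.165.

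Most other genes with several probes had small gaps between them. Of the 85 genes, 24 had more than 1 tested probe, which gave 32 dimmer probes to set beside the brightest. The median gap in log2 difference was 0.08, 30 gaps were under 0.5 and 1, that of Ndufa3, was over 1. In 24 of the 32 the dimmer probe had the higher difference. Cox7a2l, which encodes a factor of respiratory supercomplexes, had 3 probes on one side, at 0.23, 0.38 and 0.59 from the brightest to the dimmest, with limma adjusted p of 0.178 to 0.549.

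Within single experiments the medians by complex were small as well. For complex I they were -0.19, -0.08 and -0.18 in experiments 1, 2 and 3, and for complex II -0.17, -0.05 and -0.12. Complex III gave 0.09, -0.02 and 0.00, complex IV 0.02, -0.03 and -0.06 and complex V -0.03, -0.11 and -0.14. Only complexes I, II and V kept one sign in all 3 experiments. Counted by gene, 19 of 35 in complex I were lower in every experiment and 2 were higher in every experiment. In complex V 4 of 15 were lower in every experiment and none was higher. The share of all tested genes with the same direction in every experiment was not computed. Nothing particular to a complex is therefore read from these counts, which are of quantile-normalised values.

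**Figure D4:**
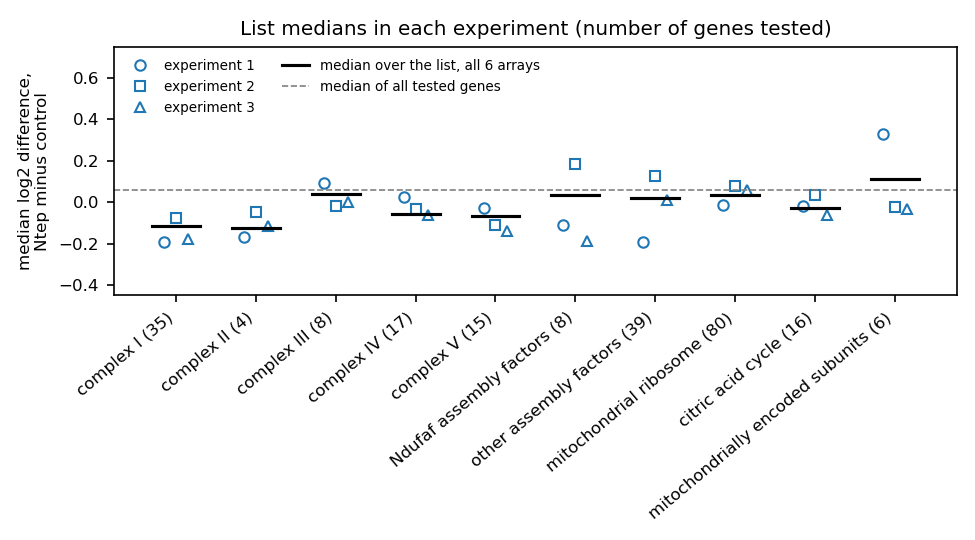
Median log2 difference over each list within experiment 1, 2 or 3 (open symbols) and over all 6 arrays (black bar), with the number of genes tested in parentheses and the median of all tested genes as a dashed line. The 5 complexes stay between -0.19 and 0.09, and the assembly factors and the mitochondrially encoded subunits differ more between experiments.

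Promoter sequences were searched for motifs of factors known to act on such genes. RefSeq promoters (GRCm38.p6, from 250 bases before to 50 after the start) matched 69 of the 85 genes. Both strands were searched for GCGCATGCG, the core bound by NRF1, for CCGGAAG, a site of ETS factors such as GABP, and for AAGATGGCG, a site of YY1. At least 1 of the 3 was present for a minority, 27 of the 69 genes (39.1%), and for 12.7% of all 27025 genes with a promoter in the table. The NRF1 core was found for 8 (11.6% against 1.95%), the ETS site for 16 (23.2% against 9.93%) and the YY1 site for 8 (11.6% against 1.64%). In 5 genes more than 1 of the motifs was present, and the NRF1 core often matched both strands because it is nearly palindromic. A match describes the letters of the window and not a bound site. Promoters of 3 genes, which between them hold each motif, are given as the 250 bases upstream of the start, 5′ to 3′ on the strand of the gene, with motif matches in capitals. In quantile-normalised values Cox6a1 was lower and Sdhd higher without overlap, and Atp5j differed by -0.05.
Cox6a1 (chr5:115348959-115349208, minus strand): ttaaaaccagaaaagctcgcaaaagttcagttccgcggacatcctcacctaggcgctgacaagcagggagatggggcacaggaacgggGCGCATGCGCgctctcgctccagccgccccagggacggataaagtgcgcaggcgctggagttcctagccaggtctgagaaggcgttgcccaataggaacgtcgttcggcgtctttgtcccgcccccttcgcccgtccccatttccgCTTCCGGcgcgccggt
Sdhd (chr9:50603850-50604099, minus strand): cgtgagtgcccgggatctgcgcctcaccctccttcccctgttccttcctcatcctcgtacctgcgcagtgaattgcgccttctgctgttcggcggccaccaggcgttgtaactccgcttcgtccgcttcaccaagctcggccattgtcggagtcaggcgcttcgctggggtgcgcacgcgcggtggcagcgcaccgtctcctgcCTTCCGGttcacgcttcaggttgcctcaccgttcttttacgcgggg
Atp5j (chr16:84834977-84835226, minus strand): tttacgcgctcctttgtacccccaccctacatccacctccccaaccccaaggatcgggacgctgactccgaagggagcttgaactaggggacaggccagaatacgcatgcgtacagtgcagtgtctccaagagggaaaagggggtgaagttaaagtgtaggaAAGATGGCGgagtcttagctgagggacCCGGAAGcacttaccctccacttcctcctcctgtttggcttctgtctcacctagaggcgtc

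The factors that bind these motifs did not pass either limit. Nrf1 gave 7311, 7561 and 6092 under GapmeR Ntep and 7462, 5722 and 6091 under GapmeR control (log2 difference 0.12). Gabpa, the DNA-binding part of GABP, differed by 0.41 and Yy1 by 0.23, with limma adjusted p of 0.408 and 0.714. A second Gabpa probe gave 10389, 4026 and 6154 against 3938, 2068 and 2011, higher without overlap (log2 difference 1.32, SE 0.44, limma adjusted p = 0.131), whereas the brightest was lower under GapmeR Ntep in experiment 2. Tfam, which packages and transcribes mitochondrial DNA, differed by -0.06, and its dimmest probe by -0.55 (limma adjusted p = 0.184). Ppargc1a, the coactivator best known for inducing mitochondria, was at the floor of 20 on every GapmeR Ntep array and on GapmeR control replicate 3, at 23.9 on replicate 2 and at 243 on replicate 1. Of the 17 regulators tested, none was called by adjusted p or by the 2-fold limits, and 2 (11.8%, against 24.9% of all tested genes) had an unadjusted limma p under 0.05. These were Mterf4, which acts in mitochondrial ribosome assembly, at 0.84, and Twnk, the mitochondrial DNA helicase, at 0.97, both higher without overlap (limma adjusted p = 0.0608 and 0.159).

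Differences of assembly factors had the median size found over all genes, but a smaller share reached 0.5. Of the 47 tested, 33 (70.2%) differed by less than 0.5, against 57.6% of all tested genes, and the SD over genes was 0.54 against 0.82. The median size of a difference, in either direction, was 0.41 on the log2 scale, against 0.12 for the 82 genes and 0.41 for all tested genes. For genes with a mean signal of at least 10000 that size was 0.23. By brightest probe, Taco1 rose by adjusted p, Taco1 and Sco2 passed the 2-fold limits upward, and Ndufaf2 and Surf1 passed them downward. The share past the 2-fold limits was 4.26% upward and 4.26% downward, against 2.88% and 4.99% of all tested genes, and nothing particular to the list is read from it. At an unadjusted limma p under 0.05 there were 11 of the 47 (23.4%), near the 24.9% of all tested genes. The remaining 43 passed neither limit, and the medians of the complex I list and of the other list were 0.04 and 0.02.

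Ndufaf2 is an assembly factor for complex I that its relative Ndufa12 replaces in the finished complex. Its signals of 13985, 19975 and 17038 under GapmeR Ntep were all below those of 41295, 30584 and 33053 under GapmeR control. Means were 16999 ± 2996 and 34977 ± 5609 (SD, n = 3 each), a log2 difference of -1.04 (SE 0.22, limma adjusted p = 0.051). It passed by adjusted p in 5 of 12 alternatives and in none of the 6 fits without 1 array, and over all alternatives and omissions of an array that p ran from 0.00644 to 0.168. Ndufaf3 was also lower without overlap, at -0.60 (limma adjusted p = 0.111). Ndufaf1, which acts on the membrane arm, went the other way, at 15981, 12629 and 15278 against 8738, 8935 and 9537 (log2 difference 0.68, SE 0.17, limma adjusted p = 0.0734), and passed in 4 of 12 alternatives, with a range of 0.0092 to 0.243. Ndufaf4 passed the 2-fold limits with its dimmer probe, at 1.14, while its brightest probe differed by 0.50 with overlap. Ndufaf5 to Ndufaf8, named in the files by clone identifiers, differed by 0.36, 0.37, -0.29 and -0.51. A dimmer Ndufaf5 probe went the other way, lower without overlap at -0.43 (limma adjusted p = 0.337).

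The other called assembly factors serve complex IV. Surf1, whose loss in humans causes Leigh syndrome, gave 5653, 10516 and 8422 against 17956, 18380.4 and 18728 (log2 difference -1.21, SE 0.26, limma adjusted p = 0.0535). Sco2, which helps deliver copper to the enzyme and is a known P53 target gene, gave 19686, 11001 and 14457 against 8209, 5221 and 5563 (log2 difference 1.24, SE 0.30, limma adjusted p = 0.067). Both pairs of groups were far apart, in opposite directions, and with experiments as blocks both passed by adjusted p, at 0.0446 and 0.032. Over all alternatives the adjusted p ran from 0.00495 to 0.188 for Surf1 and from 0.00475 to 0.226 for Sco2. Taco1, a translational activator of mitochondrially encoded COX1, rose from 926, 964 and 990.3 to 1781, 1788 and 2434 (log2 difference 1.04, SE 0.19, limma adjusted p = 0.0395). That call was lost in each of the 6 fits that left out 1 array, where the difference stayed between 0.89 and 1.12. Cox17, a copper chaperone, had 1 dim probe past the 2-fold limits downward, while its brightest probe passed neither limit. The dim probe was well above background on 2 control arrays and on no GapmeR Ntep array. With the lowest signal well above background on each GapmeR Ntep array in place of its own, it was at least 1.28-fold lower.

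**Figure D5:**
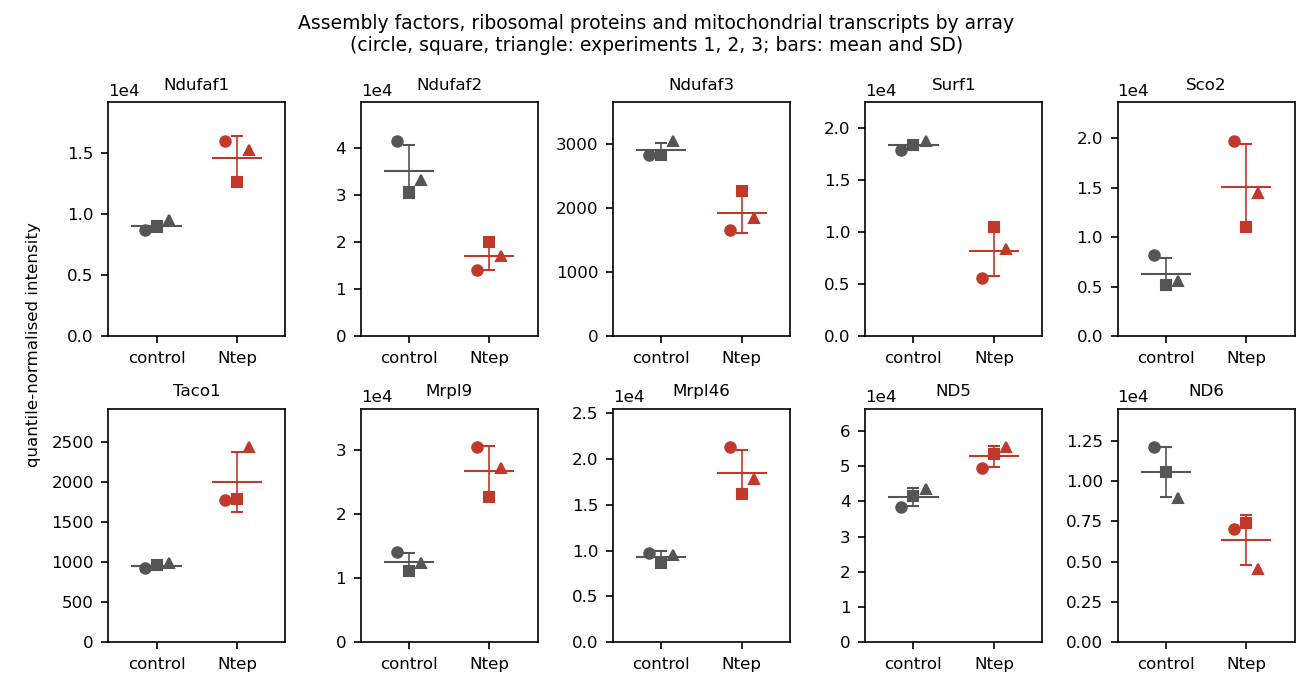
Quantile-normalised intensity (linear axis from 0) of assembly factors, mitochondrial ribosomal proteins and transcripts of mitochondrial DNA on each array, GapmeR control in grey and GapmeR Ntep in red, brightest probe. Symbols give the experiment, and bars the mean and SD of 3 arrays. The genes shown were selected, and in all 10 panels the groups do not overlap. Among the 47 tested assembly factors 19.15% were higher and 14.89% lower without overlap, against 17.1% and 15.4% of all tested genes. For the 80 ribosomal proteins these shares were 17.5% and 15%, and for the 6 mitochondrially encoded genes 16.67% each.

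Subunits encoded by mitochondrial DNA were looked at after the files had been opened, and 6 had a probe. COX1, the catalytic subunit of complex IV, gave 307064, 303836 and 326752 against 295358, 287338 and 340412, a difference of 0.03. ND5 of complex I gave 49561, 53444 and 55294 against 38488, 41644 and 43568, higher without overlap (log2 difference 0.36, limma adjusted p = 0.223). ND6, which is read from the other strand of mitochondrial DNA, gave 7031, 7402 and 4556 against 12079, 10589 and 8960.3, lower without overlap (log2 difference -0.76, SE 0.25, limma adjusted p = 0.135). ND1 differed by -0.02, ND4L by 0.20 and ND3 by 0.40, all with overlap. None of the 6 passed either limit, and 1 (ND6) had an unadjusted limma p under 0.05, as had 24.9% of all tested genes.

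Among the other mitochondrial lists, medians were close to that of all genes for most. The 80 tested mitochondrial ribosomal proteins had a median of 0.03, and 2 rose by adjusted p (2.5%, against 1.98% of all tested genes). Mrpl9 gave 30341, 22580.3 and 27188 against 14052, 11138 and 12346 (log2 difference 1.09, limma adjusted p = 0.0374), and Mrpl46 gave 21218, 16118 and 17836 against 9773, 8666 and 9553 (log2 difference 0.97, limma adjusted p = 0.0399). A dimmer probe of Mrpl49 rose by 1.15, against -0.26 for its brightest probe. A dimmer probe of Mrpl41, not well above background on any control array, was at least 1.67-fold higher under GapmeR Ntep, the control being set to the lowest signal well above background on each array where its own was lower. The brightest Mrpl41 probe differed by -0.26. A dimmer probe of Mrpl15 differed by -1.76 and passed downward, and its brightest probe differed by -1.02. The limma adjusted p of these 3 probes ran from 0.0287 to 0.045, and none of the brightest probes was called. The Mrpl41 call was also lost with normexp, with limma's trend and with the mean of a gene's probes. All 5 of these calls were lost when any single array other than GapmeR Ntep replicate 2 was left out, and without that array those of Mrpl46 and Mrpl49 were lost too.

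Of 16 citric acid cycle genes none was called, at a median of -0.03. The list of electron carriers had a median of -0.35, 7 of its 13 genes below 0. The somatic cytochrome c gene Cycs differed by 0.16, with -0.14, -0.09 and 0.70 in experiments 1, 2 and 3, above 0 in experiment 3 alone, and its other tested probe differed by -0.28 and was lower in each experiment. The testis form Cyct was at 189, 248 and 402 against 112, 85.6 and 106 (log2 difference 1.40, SE 0.31, limma adjusted p = 0.0586), past the 2-fold limits. With experiments as blocks the adjusted p of Cyct was 0.049, within 0.00476 to 0.207 over all alternatives. Import proteins had a median of 0.09, with dimmer probes of Tomm6 and Timm8a1 at 1.35 and 1.15 past the 2-fold limits, the former also by limma adjusted p (0.0288), and brightest probes at 0.10 and -0.05. The 14 genes of the mitochondrial stress response had a median of 0.05 and none was called. At an unadjusted limma p under 0.05, which 24.9% of all tested genes had, there were 12 of 80 ribosomal proteins, 4 of 16 genes of the citric acid cycle, 2 of 13 electron carriers, 1 of 19 import proteins and 2 of 14 genes of the stress response.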

How the data were processed

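Agilent mouse arrays of 6 cultures of 3T3 cells in 1 colour were analysed. The authors extracted each scan with Agilent Feature Extraction 10.7.3.1 (submitters' processing notes) and deposited background-subtracted intensities per array, not normalized between arrays, and a table of quantile-normalised intensity values floored at 20, used here as an alternative. The latter were within 0.1 on the log2 scale of the values computed here for 99.9% of values and differed by over 1, at most by 9.35, for 33 probes, none of them a probe of the members or of the mitochondrial lists. Here the deposited array intensities were averaged over the spots of each probe and brought to common quantiles, with 20 as the lowest value kept. GapmeRs were then set against each other on the log2 scale by limma (version 3.58.1, run under R version 4.3.3, with files read by the package data.table, version 1.17.8), unpaired, two-sided, with Benjamini-Hochberg adjustment over 30990 tested probes. The brightest tested probe stood for a gene. All calls are adjusted p under 0.05 or, as in the study's own limits, a 2-fold change with p under 0.01. The steps were tested on simulated data. Depth does not apply, and the number of arrays limits the precision. With 3 arrays per group, p-values set the difference between groups against the spread between these cultures. As the fit is unpaired, variation shared by the arrays of an experiment stays in that spread.

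The members and lists were chosen with earlier results of these data known. Genes were named by rule: those called by either limit with any probe, the highest and lowest of each complex and of the Ndufaf list, the paralogous and the central subunits, and called genes of the lists, with Cox4nb, Atp5s and Atp5sl described apart. Ndufs6, Ndufa12, Ndufv3, Ndufab1, Sdhc, Cox7a2l, Atp5j, Ndufaf3 and Ndufaf5 to Ndufaf8, the regulators, Cycs, their further probes and the mitochondrially encoded genes were added after their values were seen. Replicate numbers follow the order of deposit. The study's supplementary spreadsheet pairs the arrays in the same way and gives each pair 1 culture day, and residuals of same-numbered arrays correlated at 0.466, 0.3 and 0.254 (other pairs -0.327 to 0.126), so the numbers pair the arrays.

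Probe positions are those of the files (mm9). Alternatives were other normalizations and background corrections, floors, filters, probe choices, variance models, the methods' t-test, removal of outlier spots, experiments as blocks and the omission of each array.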

Additional observations from a re-analysis of the deposited data

How the results depend on the processing

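Over 12 alternatives and 6 fits without 1 array, 167 of 198 values of the medians and counts moved by less than the SD between experiments for a median, or stayed equal for a count, and 10 of the 126 medians turned sign. Under 75th percentile scaling the medians were 0.14 for all 82 genes, 0.084 for complex I, 0.0797 for complex II, 0.27 for complex III, 0.14 for complex IV and 0.16 for complex V, where all tested genes had 0.22. Without a filter on dim probes complex IV had -0.10, and with the mean of a gene's probes complex II had -0.057 and the Ndufaf list -0.16. By adjusted p, limma with the replicate block called 1 of the 82 genes higher and 1 lower, with trend 1 lower, and with array weights 2 higher and 3 lower, against 0 in the unpaired fit. The share of all tested genes called in each of these other fits was not computed. The block changed no call among the other members and the calls it changed in the lists are given with those genes. Leaving out 1 array, the medians ran from -0.16 to -0.017 for all 82 genes, -0.17 to -0.039 for complex I, -0.19 to -0.0304 for complex II, -0.063 to 0.10 for complex III, -0.20 to -0.0038 for complex IV, -0.13 to -0.031 for complex V and -0.20 to 0.16 for the Ndufaf list. The number past the 2-fold limits downward ran from 0 to 1, the 1 being Ndufa4l2 without GapmeR control replicate 1.

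Of 44 named values, 15 changed sign somewhere. Under 75th percentile scaling Uqcr11 had 0.10, Cox4i1 had 0.18, Cox6a1 had 0.053, Cox6b1 had 0.042, Cox8a had 0.16, Ndufa4 had 0.068, Atp5g1 had 0.11, Atp5g2 had 0.16, Sdhb had 0.11 and Atp5a1 had 0.12. With array weights Cox4i1 had 0.0903 and Ndufs1 -0.0071, and with normexp Cox6b1 had 0.0047. Without 1 array, Atp5o ran from -0.31 to 0.028, Cox4i1 ran from -0.096 to 0.059, Cox6b1 ran from -0.29 to 0.19, Cox6b2 ran from -0.084 to 0.16, Cox7a1 ran from -0.65 to 0.089, Atp5g2 ran from -0.17 to 0.062, Ndufs1 ran from -0.059 to 0.069 and Uqcrfs1 from -0.064 to 0.092. The cause was not tested. Dim probes such as those of Ndufa4l2 and Cox17 lie near background, which limits their values.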
